A study of Rattus norvegicus with 10 samples.

Results

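Transcripts of potassium channel subunits were counted in the hippocampus of rats 3 months after electrically induced status epilepticus and in sham-operated rats. The set held 83 genes whose rat symbol begins with Kcn, which are the pore-forming subunits of potassium channels and the auxiliary subunits that carry the same prefix. Rows of the count matrix were matched to RefSeq symbols, 1 row was used for each symbol (the row with the highest mean count), Kcnj10 was left out, and a summed count of at least 46 over the 10 rats was required. Of 97 Kcn symbols in the RefSeq table, 91 matched a row, 90 remained without Kcnj10, and 83 reached the minimum, out of 22447 features tested and 32041 features counted. Kcne3 with 49 reads and Kcnj15 with 51 reads lay just above the minimum, and Kcng3 with 36 reads lay just below it together with Kcnj1, Kcne1, Kcnmb3, Kcna10, Kcnn4 and Kcnmb1.

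Both groups were male Sprague-Dawley rats with electrodes placed in the left lateral amygdala under isoflurane anaesthesia with butorphanol. The 5 sham rats (rats 1 to 5) received no current. The 5 rats of the amygdala stimulation model (rats 6 to 10) received 400 µA at 60 Hz for 30 min, longer where status epilepticus had not begun, and status epilepticus was ended with diazepam at 20 mg/kg, so the drug belonged to the stimulated group alone and its part and that of the current cannot be told apart. Tissue of the left hippocampus was taken from each rat separately, so every library was 1 animal. The labels name dorsal hippocampus, and the study's methods describe the piece as CA3 and dentate gyrus and the stimulated rats as having spontaneous seizures.

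Potassium channels let potassium ions leave the cell along their gradient, which draws the membrane potential back towards rest and so limits firing. The Kcna, Kcnb, Kcnc, Kcnd, Kcnh and Kcnq families open with depolarisation, the Kcnj family passes current more easily inwards than outwards, the Kcnk family carries the background leak, and the Kcnm, Kcnn and Kcnt families respond to intracellular calcium or sodium. Channels assemble from several subunits, and auxiliary proteins such as Kcnab, Kcnip and Kcne set their gating and their delivery to the membrane.

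Aligned counts ran from 13552309 to 24086059 per rat. Unaligned reads made up 32.8% to 37.1% of all reads in the sham rats. In rats 6 to 10 they made up 35.6%, 32.0%, 41.4%, 42.9% and 45.1%, so rats 8, 9 and 10 lay above every sham rat. The part of this difference in the gene values was not tested. The 83 genes together took 0.276% to 0.325% of aligned counts in the sham rats and 0.275% to 0.332% in the stimulated rats. Neuronal, CA3 and dentate granule markers were present in every rat, and so were the CA1 markers. The summed level of the CA1 markers was highest in rat 6 and lowest in rat 10, both outside the sham range. Of these lists and those of interneurons, oligodendrocytes, microglia and choroid plexus, no gene had an unadjusted p under 0.05, and of 4 meningeal fibroblast markers 1 did. The summed level of 12 immediate early genes, which neuronal activity switches on within minutes, was 169 to 216 CPM (counts-per-million units after scaling by edgeR's trimmed mean factors) in the sham rats and 223, 781, 163, 1766 and 733 CPM in rats 6 to 10, so rats 7, 9 and 10 stood apart from the rest.

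No Kcn gene passed the threshold after adjustment for all tested features. With edgeR's quasi-likelihood test, 0 of the 83 genes had an adjusted p under 0.05, as did 0.0% of all features, and the lowest adjusted p was 0.396, for Kcnk1. The count was also 0 of 83 with edgeR's likelihood ratio test, with limma-voom and with DESeq2. The study's own test, on fewer stimulated rats, had listed Kcnk1 as upregulated. At an unadjusted p under 0.05, 7 genes (8.43%) were higher in the stimulated rats, beside 6.7% of all features, and 2 genes (2.41%) were lower, beside 3.16% of all features. The shares of the set were near those of all features in both directions. Counts of subfamilies and marker lists at this threshold are to be read beside the same shares. Single rats moved the count of lower genes, which was 8 without rat 6 (beside 5.71% of all features), 5 without rat 8 (beside 5.51%) and 1 without sham rat 2 (beside 2.45%). No gene was higher in every stimulated rat than in every sham rat (0.695% of all features were) and none was lower in every one (0.597% of all features were). By sign, 40 genes were higher and 43 lower, and the median log2 fold change of stimulated over sham was -0.01 for the set and 0.01 for all features. Of the 83 genes, 54 had a mean of at least 100 reads per rat, 8 had under 10, and 6 were at 0 in at least 1 rat. Levels given as a mean carry the SD over the 5 rats of the group.

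**Figure D1:**
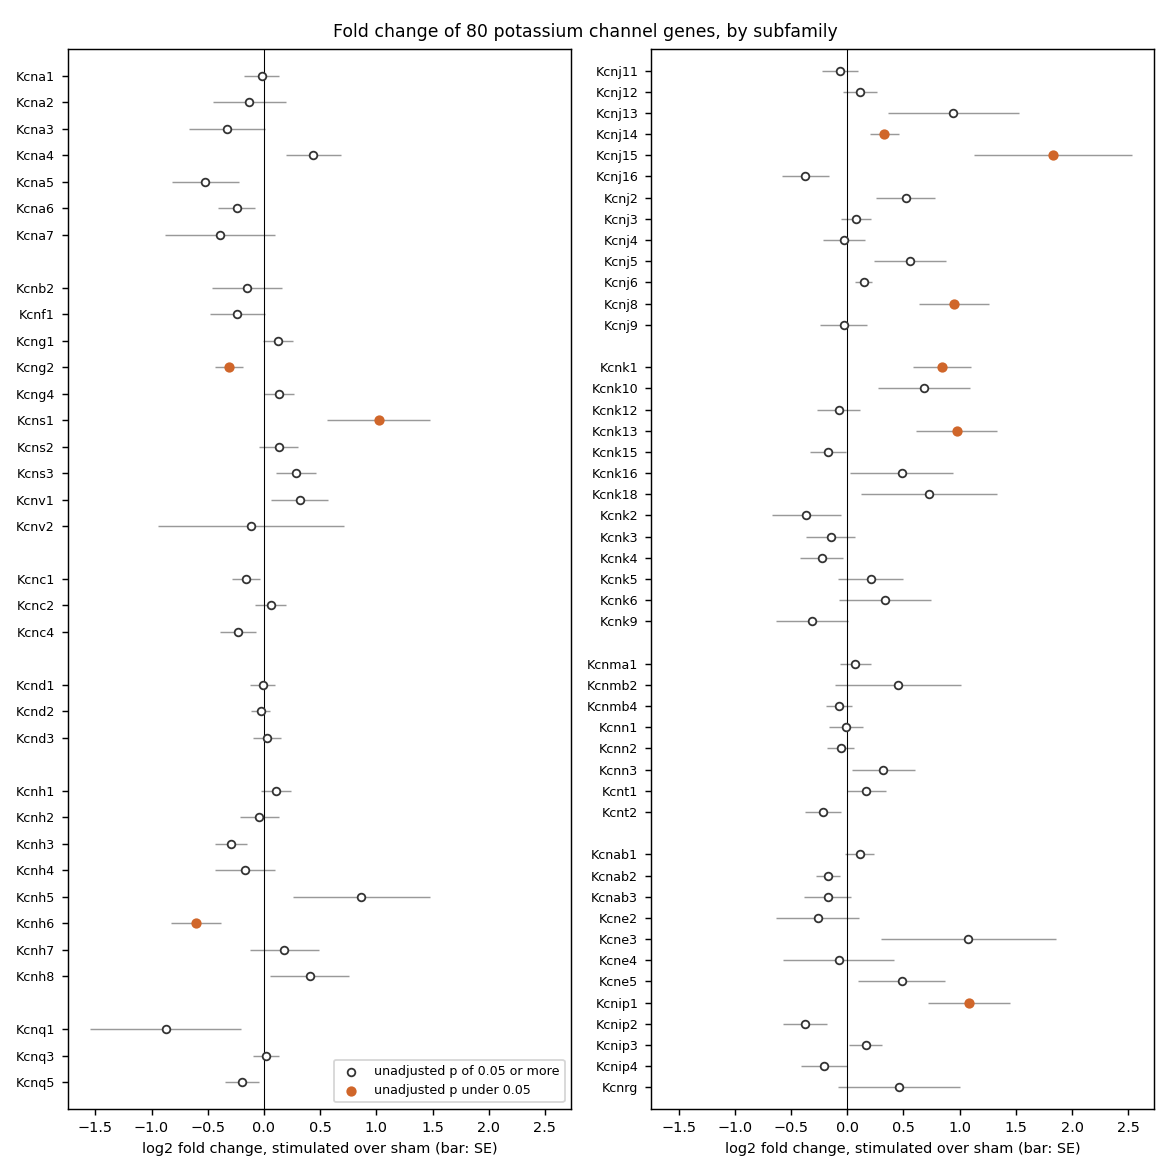
Log2 fold change of stimulated over sham (horizontal axis) for 80 of the genes (rows, by subfamily), with filled points for the 9 genes at an unadjusted p under 0.05 and bars for the standard error. The filled points are 7 genes to the right of zero, among them Kcnk1 and Kcnj8, and Kcnh6 and Kcng2 to the left.

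The tandem-pore Kcnk genes, whose channels carry the background leak, held the lowest p of the set. Kcnk1, the TWIK-1 channel of neurons and astrocytes, was counted at 55.1, 46.9, 63.6, 66.2 and 56.2 CPM in sham rats 1 to 5 and 57.3, 104, 62.1, 185 and 110.4 CPM in stimulated rats 6 to 10. Rats 7, 9 and 10 lay above every sham rat, whereas rats 6 and 8 lay within the sham range. Its mean was 57.6 ± 7.59 CPM among sham and 104 ± 51.2 CPM among stimulated rats, a log2 fold change of 0.85 (SE 0.26, unadjusted p = 0.0055, adjusted p = 0.396) by edgeR's quasi-likelihood test. Rat 9 carried much of this difference, and without it the log2 fold change was 0.53 (unadjusted p = 0.014). Rats 7, 9 and 10 were also those with the high immediate early genes, of which 10 of 12 had an unadjusted p under 0.05, all higher. The part of these genes and of the astrocyte list in the Kcnk1 values was not tested.

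Kcnk13, the THIK-1 channel known for its role in microglia, was counted at 4.25, 4.12, 4.25, 3.51 and 3.90 CPM in the sham rats and 2.53, 14.2, 4.28, 6.63 and 11.5 CPM in the stimulated rats. Its sham values lay within a narrow band, rats 7, 8, 9 and 10 lay above it (rat 8 only barely), and rat 6 lay below it. The log2 fold change was 0.97 (SE 0.36, unadjusted p = 0.019, adjusted p = 0.420), and it was 0.64 without rat 7 (unadjusted p = 0.07) and 0.79 without rat 10 (unadjusted p = 0.055). Of the 7 microglial markers none had an unadjusted p under 0.05. Their summed level was 232 to 286 CPM in the sham rats and 248.5, 334, 247.5, 347 and 279 CPM in rats 6 to 10, so rats 7 and 9 lay above every sham rat. Of the 8 astrocyte markers 4 were higher at that threshold, and their summed level of 4588 to 5229 CPM in the sham rats stood beside 4625, 9540, 4824, 5854 and 8831 CPM in rats 6 to 10. Gfap made up the high sums of rats 7 and 10, at 6469 and 5396 CPM beside 1327 to 1927 CPM in the sham rats. Without it the other 7 markers summed to 2952 to 3620 CPM in the sham rats. In rats 7 and 10 they summed to 3071 and 3435 CPM, within the sham range, and in rat 9 to 3775 CPM, above it. Of these 7 markers 3 were still higher at that threshold (Aqp4, Slc1a2 and Slc1a3). Aqp4 was higher in every stimulated rat than in every sham rat. The part of the microglial markers, of Gfap and of the other astrocyte markers in the Kcnk13 values was not tested.

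Kcnk2, the TREK-1 channel that opens with stretch and with polyunsaturated lipids, was counted at 16.5, 16.2, 20.0, 21.8 and 15.4 CPM in the sham rats and 21.9, 4.18, 18.5, 13.5 and 11.8 CPM in the stimulated rats. Rats 7, 9 and 10 lay below every sham rat and rat 6 just above the highest of them, so the groups overlapped. Its log2 fold change was -0.37 (adjusted p = 0.718, SE 0.31), and the other row of the gene had a log2 fold change of -0.35 (adjusted p = 0.757). Over the 13 Kcnk genes the median log2 fold change was 0.21. At an unadjusted p under 0.05, 2 were higher and 0 lower, beside 6.7% and 3.16% of all features. Kcnk10, the TREK-2 channel, reached 11.6 CPM in rat 9 beside 1.99 to 4.30 CPM in the sham rats, and the acid-sensitive Kcnk9 (TASK-3) lay below its sham range of 6.75 to 11.0 CPM in rat 7 at 2.55 CPM and in rat 10 at 3.77 CPM. These last 2 genes were picked after their values were seen, and neither passed the unadjusted threshold (log2 fold change 0.68, SE 0.41, adjusted p = 0.599 for Kcnk10, and log2 fold change -0.31, SE 0.32, adjusted p = 0.779 for Kcnk9).

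**Figure D2:**
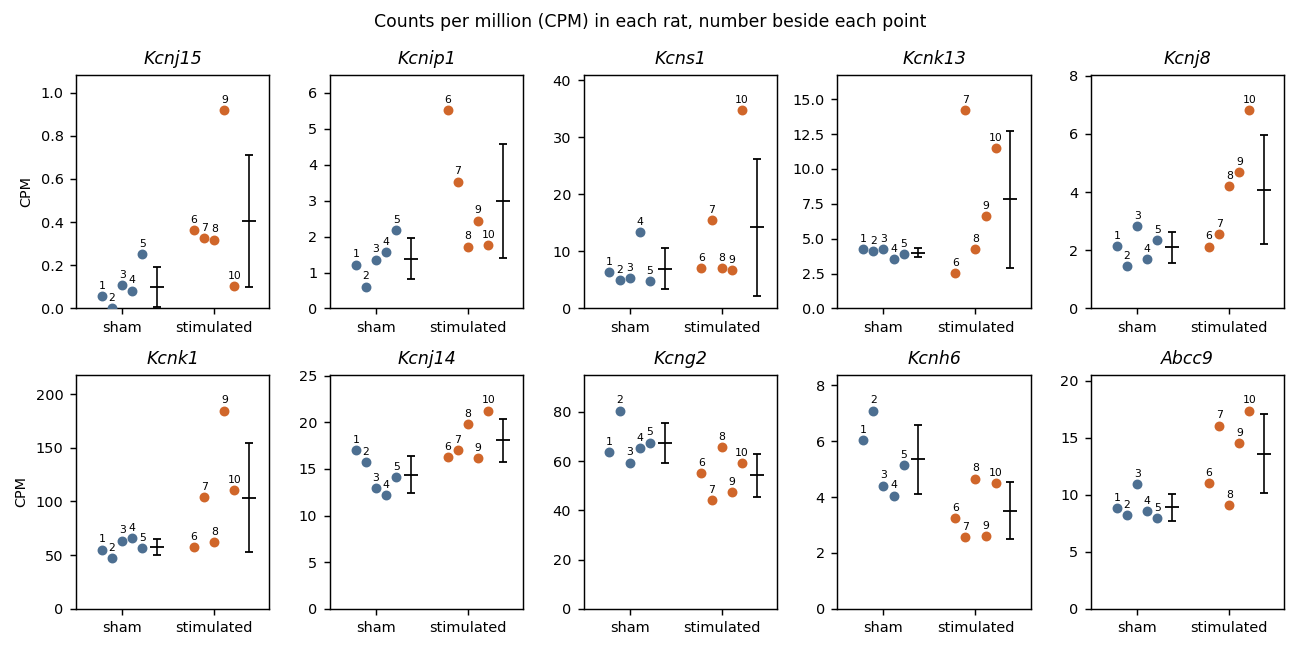
CPM in each rat for the 9 Kcn genes at an unadjusted p under 0.05 and for the channel partner Abcc9, with sham rats (blue) and stimulated rats (orange) side by side, the rat number at each point, and the group mean with bars for the SD. The groups overlap in every panel, and rat 9 for Kcnk1 and Kcnj15, rat 10 for Kcns1 and rat 6 for Kcnip1 stand highest.

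Among the inwardly rectifying Kcnj genes, Kcnj8 had the lowest p. Kcnj8 encodes Kir6.1, the pore of the ATP-sensitive channel of vascular smooth muscle and pericytes, where it pairs with the sulfonylurea receptor SUR2, the product of Abcc9. Kcnj8 was counted at 2.15, 1.45, 2.83, 1.70 and 2.35 CPM in sham rats 1 to 5 and 2.13, 2.55, 4.21, 4.69 and 6.81 CPM in stimulated rats 6 to 10. Rats 8, 9 and 10 lay above every sham rat, and rats 6 and 7 lay within the sham range. Rats 8, 9 and 10 also had the highest shares of unaligned reads, whose part in the Kcnj8 values was not tested. The log2 fold change was 0.95 (SE 0.31, unadjusted p = 0.0083, adjusted p = 0.399), on a mean of 59.7 reads per rat.

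Abcc9, which came from a list of genes that form potassium channel complexes under other symbols, was counted at 8.84, 8.24, 10.9, 8.56 and 7.96 CPM in the sham rats and 11.0, 16.1, 9.07, 14.5 and 17.4 CPM in the stimulated rats. Rats 6 (barely), 7, 9 and 10 lay above every sham rat and rat 8 lay within the sham range, and the log2 fold change was 0.61 (SE 0.18, unadjusted p = 0.0042, adjusted p = 0.389). The pore and the receptor of the vascular channel were thus higher at the unadjusted threshold, whereas the pore and the receptor of the neuronal and beta-cell channel were not, a contrast between pairs that was not itself tested. Kcnj11 (Kir6.2) had a log2 fold change of -0.07 (adjusted p = 0.922, SE 0.16) and Abcc8 (SUR1) of -0.15 (adjusted p = 0.718, SE 0.13). Kcnj8 and Abcc9 kept an unadjusted p under 0.05 in each of the 18 alternative settings.

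Vascular markers differed in the same direction, although the summed lists rested largely on rat 10. Of 6 measured endothelial markers 4 were higher at an unadjusted p under 0.05. The 6 together summed to 128 to 150 CPM in the sham rats and to 151, 146, 162, 145 and 276 CPM in rats 6 to 10. Cldn5 weighed on these sums, at 66.1 to 79.1 CPM in the sham rats and 150.1 CPM in rat 10. The mean log2 CPM of the 6 was 3.91 to 4.09 in the sham rats and 4.33, 4.31, 4.27, 4.08 and 5.04 in rats 6 to 10. Pecam1 was higher in every stimulated rat than in every sham rat, as 0.695% of all features were (log2 fold change 0.81, SE 0.18, adjusted p = 0.376). Of 6 mural markers 2 were higher, Acta2 and Tagln of smooth muscle. The others, Pdgfrb, Rgs5, Cspg4 and Anpep, had log2 fold changes of 0.15, 0.40, 0.02 and 0.08 (SE 0.17, 0.23, 0.14 and 0.27, adjusted p = 0.813, 0.575, 0.981 and 0.944). For Rgs5, rats 6, 8, 9 and 10 lay above every sham rat, rat 8 barely, and rat 7 lay below them all. The mural list summed to 89.0 to 108 CPM in the sham rats and to 101, 93.8, 120, 116 and 165 CPM in rats 6 to 10. Rat 10 had the highest level of both lists and of Kcnj8 and Abcc9. The part of these lists in the Kcnj8 and Abcc9 values was not tested, and in bulk tissue a different number of cells of a type and a different amount of RNA per cell cannot be told apart.

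The promoters of this pair are shown because their transcripts differed in the same direction and their genes lie near each other. The starts of the 2 genes are 139.8 kilobases apart on chromosome 4 of the GRCr8 build, both on the minus strand. The 250 bases upstream of each start, from RefSeq, run 5′ to 3′ below, at chr4:177246549-177246798 for Kcnj8 and at chr4:177386349-177386598 for Abcc9, with the GC box (GGGCGG on either strand) in capitals.
Kcnj8: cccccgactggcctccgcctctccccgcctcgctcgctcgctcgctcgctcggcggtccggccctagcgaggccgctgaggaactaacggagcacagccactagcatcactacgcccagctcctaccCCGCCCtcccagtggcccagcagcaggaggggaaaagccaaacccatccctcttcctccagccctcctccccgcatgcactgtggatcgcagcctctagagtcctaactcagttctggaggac
Abcc9: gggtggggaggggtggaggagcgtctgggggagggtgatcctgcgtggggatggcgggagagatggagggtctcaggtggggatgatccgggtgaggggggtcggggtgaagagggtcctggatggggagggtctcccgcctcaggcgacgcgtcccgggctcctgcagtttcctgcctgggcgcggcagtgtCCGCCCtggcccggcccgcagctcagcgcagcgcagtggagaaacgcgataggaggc
Each window holds 1 GC box and none of 4 other motifs searched on both strands, AP-1 (TGANTCA), CRE (TGACGTCA), the short CRE (TGACG, which is also part of the CRE) and the TATA box (TATAAA). GC content was 66.8% for Kcnj8 and 71.2% for Abcc9.

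RefSeq promoters were matched for 55 of the 83 genes, 60 promoters in all. The GC box was found in 31 of these 60 (51.7%) and in 30.5% of all 33469 promoters, with a median GC content of 61.0% in the set and 51.2% in all. The short CRE was found in 11 (18.3%, beside 18.2% of all), the full CRE in 0 (beside 1.59%), the AP-1 motif in 1, that of Kcnj16 (1.67%, beside 6.34%), and the TATA box in 1, that of Kcnj13 (1.67%, beside 12.9%). These matches describe letters in a window and do not show binding.

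A further pair of Kcnj genes were higher at the unadjusted threshold. Kcnj14, the Kir2.4 channel, was counted at 17.0, 15.7, 12.9, 12.2 and 14.1 CPM in the sham rats and 16.2, 17.0, 19.8, 16.1 and 21.3 CPM in the stimulated rats. Rats 8 and 10 lay well above the sham rats, rat 7 was level with the highest of them, and rats 6 and 9 lay among them. The log2 fold change was 0.33 (SE 0.13, unadjusted p = 0.023, adjusted p = 0.431), and the unadjusted p went above 0.05 when rat 3, 4, 8 or 10 was left out. Kcnj15, the Kir4.2 channel, rested on 51 reads over all rats and was counted at 0.0582, 0, 0.109, 0.0827 and 0.252 CPM in the sham rats and 0.362, 0.325, 0.319, 0.918 and 0.103 CPM in the stimulated rats. Rats 6 to 9 lay above every sham rat at these low levels, and rat 10 did not. The fitted log2 fold change was 1.83 (SE 0.70, unadjusted p = 0.02, adjusted p = 0.428), and without rat 9 it was 1.29 (unadjusted p = 0.087).

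The Kcnj3, Kcnj6, Kcnj9 and Kcnj5 genes encode the GIRK channels, which G-protein βγ subunits open downstream of receptors such as GABA-B and adenosine A1. Kcnj6 (GIRK2) was counted at 185, 190.0, 202, 196 and 208 CPM in the sham rats and 220.2, 226, 195, 221 and 223 CPM in the stimulated rats. Rats 6, 7, 9 and 10 lay above every sham rat and rat 8 lay within the sham range. The log2 fold change was 0.14 (adjusted p = 0.528, SE 0.07). Kcnj3 (GIRK1) was at 37.8 ± 7.01 CPM among sham and 39.9 ± 4.75 CPM among stimulated rats (log2 fold change 0.08, SE 0.13, adjusted p = 0.889), and Kcnj9 (GIRK3) was at 58.4 ± 6.31 CPM among sham and 57.1 ± 19.9 CPM among stimulated rats, with its lowest value of 29.1 CPM in rat 7. Kcnj4, the Kir2.3 channel of forebrain neurons, ranged from 56.2 to 118 CPM in the stimulated rats beside 64.0 to 94.1 CPM in the sham rats, with a log2 fold change of -0.03 (adjusted p = 0.975, SE 0.18). Of the 13 Kcnj genes 3 were higher and 0 lower at an unadjusted p under 0.05, beside 6.7% and 3.16% of all features. Their median log2 fold change was 0.15.

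**Figure D3:**
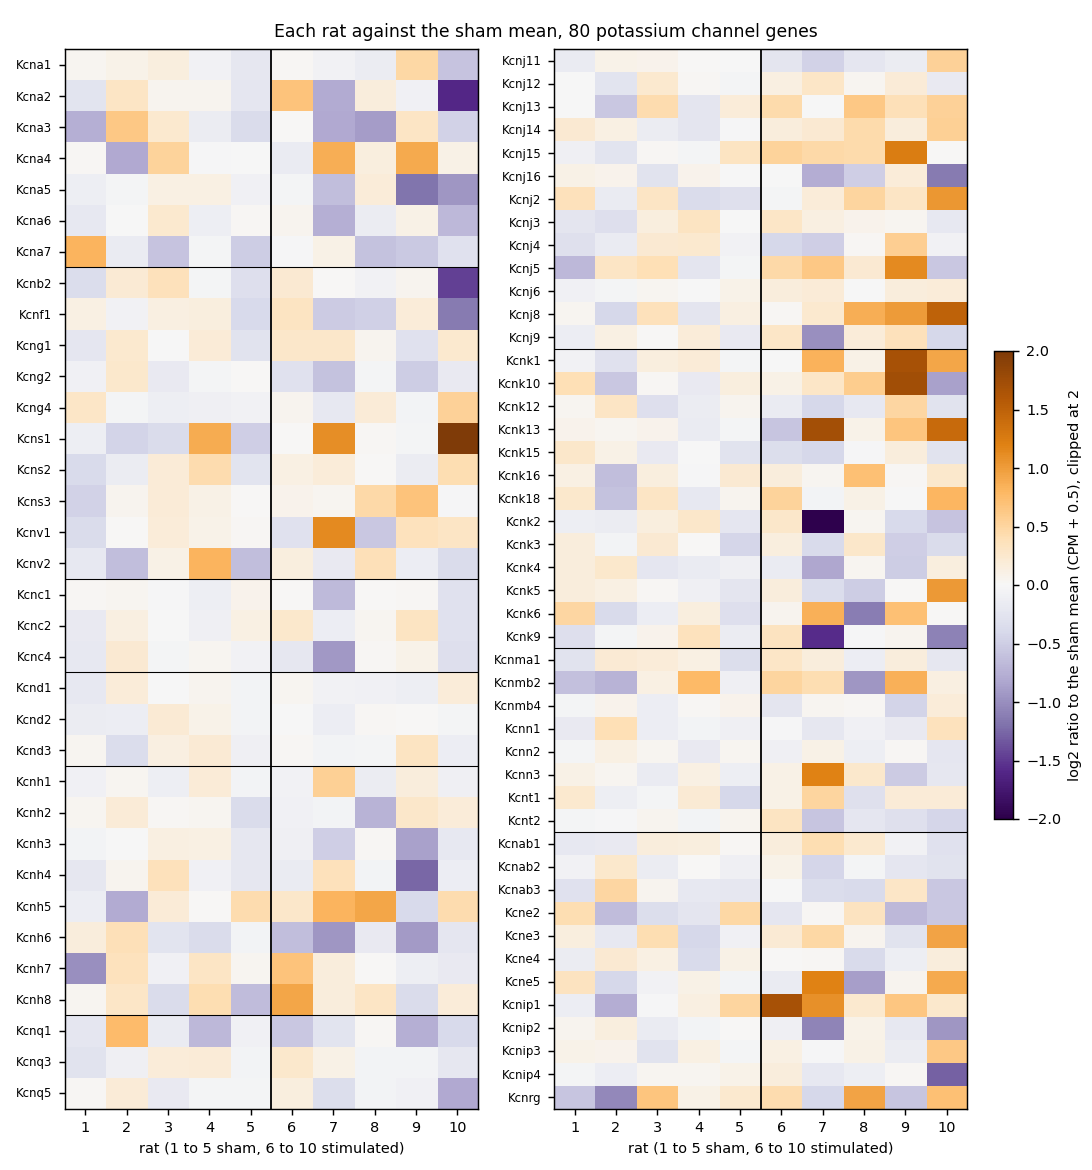
Log2 ratio of each rat's CPM to the sham mean for 80 of the Kcn genes (rows, by subfamily) in the 10 rats (columns), with orange above and violet below the sham mean, 0.5 CPM added before the ratio and colours clipped at 2. Strong colours on the stimulated side include Kcnk1 in rat 9, Kcns1 in rat 10 and Kcnk2 in rat 7.

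In the Kcna subfamily, whose delayed rectifier and A-type channels sit on axons and terminals, no gene passed the unadjusted threshold. By sign 6 of 7 were lower, with a median log2 fold change of -0.24, while 52.2% of all features were higher by sign. Kcna1 (Kv1.1), mutated in episodic ataxia, was counted at 53.9, 56.0, 58.2, 49.9 and 45.4 CPM in the sham rats and 53.4, 50.1, 47.3, 73.5 and 35.0 CPM in the stimulated rats. Rat 9 was the highest of all rats and rat 10 the lowest, so the group means of 52.7 and 51.9 CPM were nearly level (log2 fold change -0.02, SE 0.16, adjusted p = 0.977). Kcna2 (Kv1.2) was at 13.0 ± 2.19 CPM among sham and 11.9 ± 6.62 CPM among stimulated rats, from 21.0 CPM in rat 6 to 3.97 CPM in rat 10. Kcna4 (Kv1.4), the A-type subunit of axons, was counted at 24.5, 13.6, 34.7, 23.7 and 23.9 CPM in the sham rats and 21.4, 44.2, 26.6, 45.4 and 26.0 CPM in the stimulated rats. Rats 7 and 9 exceeded every sham rat, and the other stimulated rats lay within the sham range (log2 fold change 0.44, SE 0.24, adjusted p = 0.566). Kcna6 (Kv1.6) was at 62.6 ± 7.56 CPM among sham and 52.9 ± 14.2 CPM among stimulated rats (log2 fold change -0.24, SE 0.17, adjusted p = 0.647).

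The Kcnb group joined the delayed rectifier Kcnb genes with the silent Kcnf, Kcng, Kcns and Kcnv subunits, which form no channel alone and modify Kcnb channels. Kcng2 (Kv6.2), a silent subunit, was counted at 63.5, 80.5, 59.4, 65.4 and 67.5 CPM in the sham rats and 55.0, 44.2, 65.5, 47.2 and 59.2 CPM in the stimulated rats. Rats 6, 7, 9 and 10 lay below every sham rat and rat 8 lay within the sham range. For this gene the log2 fold change was -0.31 (SE 0.12, unadjusted p = 0.022, adjusted p = 0.431), and it was -0.25 without sham rat 2 (unadjusted p = 0.061) and -0.27 without rat 9 (unadjusted p = 0.054).

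Kcns1 (Kv9.1), another silent subunit, was counted at 6.40, 4.96, 5.28, 13.3 and 4.82 CPM in the sham rats and 7.01, 15.4, 7.09, 6.73 and 34.7 CPM in the stimulated rats. Rats 7 and 10 lay above every sham rat, and rats 6, 8 and 9 lay within a sham range that rat 4 widened. Its log2 fold change was 1.02 (SE 0.46, unadjusted p = 0.043, adjusted p = 0.488). Without rat 10 it was 0.37 (unadjusted p = 0.29), and without sham rat 4 it was 1.40, so single animals set its size. The modifier Kcng1 (Kv6.1) was at 94.6 ± 15.5 CPM among sham and 103 ± 16.1 CPM among stimulated rats (log2 fold change 0.13, SE 0.13, adjusted p = 0.779) and Kcng4 (Kv6.4) at 61.2 ± 7.80 CPM among sham and 67.0 ± 13.8 CPM among stimulated rats (log2 fold change 0.13, SE 0.13, adjusted p = 0.777). Of the 11 genes of this group 1 was higher and 1 lower at the unadjusted threshold.

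The Kcnc genes encode the Kv3 channels, which let fast-spiking cells repolarise quickly. Kcnc1 (Kv3.1), the subunit of many fast-spiking interneurons, was counted at 71.6, 72.5, 69.7, 65.0 and 73.8 CPM in the sham rats and 71.1, 44.4, 70.6, 71.6 and 57.7 CPM in the stimulated rats. Rats 7 and 10 lay below every sham rat, rat 7 far below, and rats 6, 8 and 9 lay within the sham range. Kcnc4 (Kv3.4), an A-type member of the family, was counted at 104, 139, 115, 122 and 113 CPM in the sham rats and 102, 61.7, 120.0, 126 and 94.3 CPM in the stimulated rats. Rat 7 was again the lowest, rats 10 and 6 also lay below the sham range, rat 6 by a small margin, and rats 8 and 9 lay within it. Kcnc2 (Kv3.2) was at 15.8 CPM in that rat, within its sham range of 15.3 to 19.2 CPM. Log2 fold changes were -0.16 (adjusted p = 0.685, SE 0.12) for Kcnc1 and -0.23 (adjusted p = 0.647, SE 0.16) for Kcnc4. The interneuron markers, 7 genes of which none passed the unadjusted threshold, had their lowest summed level in rat 7. It was 305 CPM, beside 342 to 389 CPM in the sham rats, with a like one of 309 CPM in rat 8. Rat 10, also low for Kcnc1 and Kcnc4, was above that sham range at 397.5 CPM. Sst alone gave 129.8 CPM of that sum, beside 38.6 to 47.5 CPM in the sham rats. Gad1, Pvalb and Lhx6 were lowest of all rats in rat 10, at 114.2, 33.0 and 13.6 CPM, whereas Slc32a1 was highest there at 74.25 CPM. The dentate granule markers summed to 243 to 298 CPM in the sham rats and to 242, 159, 246, 355 and 202 CPM in rats 6 to 10. The part of either list in the Kcnc values was not tested.

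The Kcnd genes, whose A-type Kv4 channels damp back-propagating action potentials in dendrites, had log2 fold changes between -0.03 and 0.03. This was the narrowest range of the subfamily groups, in the smallest of them, with 3 genes. Kcnd2 (Kv4.2), the main dendritic A-type subunit of the hippocampus, was counted at 112, 112, 144, 132 and 119 CPM in the sham rats and 123, 113, 126, 125 and 120.2 CPM in the stimulated rats. All 5 stimulated values lay within the sham range. On the log2 scale the fold change was -0.03 (adjusted p = 0.934, SE 0.09). Kcnd3 (Kv4.3) was at 34.5 ± 5.14 CPM among sham and 35.3 ± 4.53 CPM among stimulated rats (log2 fold change 0.03, SE 0.12, adjusted p = 0.956), and its 3 rows, which may share reads, lay between 0.02 and 0.08. All 3 Kcnd genes had the smaller SD in the stimulated rats, the 4 Kcnc genes the larger, as did 69.5% of all features.

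**Figure D4:**
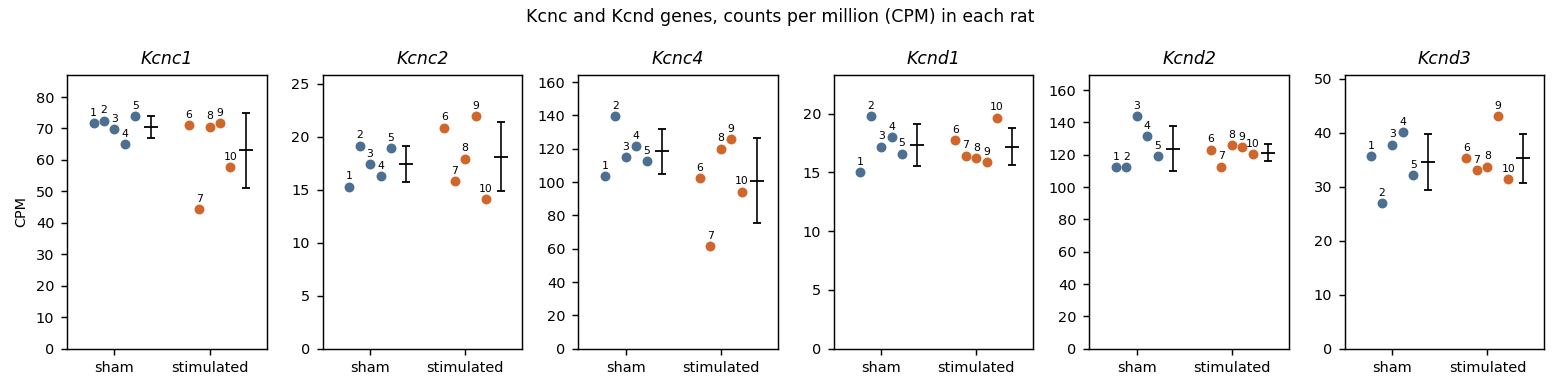
CPM in each rat for 3 Kcnc genes and the 3 Kcnd genes, sham (blue) and stimulated rats (orange) side by side with the rat number at each point, and the group mean with bars for the SD. Rat 7 is the lowest stimulated rat for Kcnc1 and Kcnc4, and the Kcnd values of both groups lie over the same range.

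The Kcnh genes encode the ether-a-go-go family. Kcnh6 (Erg2) was counted at 6.05, 7.10, 4.41, 4.05 and 5.16 CPM in the sham rats and 3.26, 2.55, 4.66, 2.60 and 4.49 CPM in the stimulated rats. Rats 6, 7 and 9 lay below every sham rat, and rats 8 and 10 lay within the sham range. The fitted log2 fold change was -0.60 (SE 0.22, unadjusted p = 0.018, adjusted p = 0.420), and it kept an unadjusted p under 0.05 in all 18 alternative settings. Kcnh3 (Elk2), a channel of forebrain pyramidal cells, was at 122 ± 11.4 CPM among sham and 99.5 ± 22.7 CPM among stimulated rats, with 66.9 CPM in rat 9 and 86.6 CPM in rat 7 below its sham range (log2 fold change -0.29, SE 0.14, adjusted p = 0.525). Kcnh1 (Eag1) was at 38.7 ± 3.60 CPM among sham and 41.7 ± 9.36 CPM among stimulated rats (log2 fold change 0.11, SE 0.14, adjusted p = 0.833). Of the 8 Kcnh genes 0 were higher and 1 lower at the unadjusted threshold.

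The Kcnq genes include those of the M-current, which muscarinic receptors close. Kcnq3 (Kv7.3), a main subunit of that current, was counted at 47.2, 53.1, 64.7, 65.6 and 54.6 CPM in the sham rats and 68.5, 61.0, 54.8, 54.6 and 49.4 CPM in the stimulated rats. Rat 6 lay above every sham rat and the other stimulated rats lay within the sham range. The group levels were 57.0 ± 7.89 CPM among sham and 57.6 ± 7.31 CPM among stimulated rats (log2 fold change 0.02, SE 0.12, adjusted p = 0.979). Kcnq5 (Kv7.5), which also contributes to the current, was at 44.7 ± 4.36 CPM among sham and 39.0 ± 9.18 CPM among stimulated rats (log2 fold change -0.19, SE 0.15, adjusted p = 0.690) and was picked after its values were seen. None of the 4 Kcnq genes passed the unadjusted threshold, and 1 of 4 had the larger SD in the stimulated rats.

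None of the 8 calcium- and sodium-activated genes passed the unadjusted threshold either, and their median log2 fold change was 0.03. Kcnma1, the pore of the BK channel, was at 40.5 ± 7.21 CPM among sham and 42.5 ± 6.17 CPM among stimulated rats (log2 fold change 0.07, SE 0.14, adjusted p = 0.902). Kcnmb4, the neuronal BK β subunit, was at 58.7 ± 3.47 CPM among sham and 55.8 ± 9.44 CPM among stimulated rats (log2 fold change -0.07, SE 0.12, adjusted p = 0.872). The stimulated values of Kcnmb4 split, with rats 6 and 9 at 49.6 and 42.9 CPM below every sham rat and rat 10 at 66.6 CPM above them all. Kcnn2 (SK2), which contributes to the afterhyperpolarisation, was at 9.84 ± 0.794 CPM among sham and 9.44 ± 0.888 CPM among stimulated rats (log2 fold change -0.06, SE 0.12, adjusted p = 0.907), and its stimulated values of 8.36 to 10.6 CPM nearly matched the sham values of 8.60 to 10.7 CPM.

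Among the 12 auxiliary genes, 1 passed the unadjusted threshold. Kcnip1, a calcium-binding KChIP protein that attaches to Kv4 channels, was counted at 1.22, 0.611, 1.36, 1.57 and 2.18 CPM in the sham rats and 5.52, 3.53, 1.72, 2.45 and 1.75 CPM in the stimulated rats. Rats 6, 7 and 9 lay above every sham rat, and rats 8 and 10 lay within the sham range. Its log2 fold change was 1.08 (SE 0.37, unadjusted p = 0.011, adjusted p = 0.409) on a mean of 45.1 reads per rat, and without rat 6 it was 0.73 (unadjusted p = 0.052). The 4 rows of this gene, which may share reads, had log2 fold changes of 1.04 to 1.46. The Kv4 pore genes Kcnd2 and Kcnd3 lay within 0.03 of zero on the same scale.

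The other KChIP genes had no unadjusted p under 0.05 in edgeR's quasi-likelihood test over all rats, although Kcnip2 was lower at that threshold with limma-voom and when rat 6 or rat 8 was left out. Kcnip2 was counted at 56.7, 60.5, 48.5, 52.4 and 54.9 CPM in the sham rats and 51.1, 25.7, 57.9, 47.9 and 28.0 CPM in the stimulated rats. Rats 7, 9 and 10 lay below every sham rat, with rats 7 and 10 far below, and the log2 fold change was -0.38 (adjusted p = 0.549, SE 0.20). Kcnip3, also known as DREAM, was at 26.9 ± 2.92 CPM among sham and 30.1 ± 6.86 CPM among stimulated rats (log2 fold change 0.16, SE 0.14, adjusted p = 0.730), with its highest value of 41.9 CPM in rat 10. Kcnip4 was at 9.34 CPM in rat 10 beside 21.6 to 25.1 CPM in the sham rats (log2 fold change -0.21, SE 0.21, adjusted p = 0.768). Kcnip2 and Kcnip4 were picked after their values were seen.

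The Kcnab genes encode the cytoplasmic β subunits of Kv1 channels. Kcnab2 was at 473 ± 55.3 CPM among sham and 421 ± 60.0 CPM among stimulated rats (log2 fold change -0.17, SE 0.11, adjusted p = 0.615), and Kcnab1, which confers rapid inactivation, was at 82.3 ± 9.64 CPM among sham and 89.0 ± 16.4 CPM among stimulated rats (log2 fold change 0.11, SE 0.13, adjusted p = 0.805). The Kcne genes, single-pass subunits that modify Kv channels, had few reads, and none passed the unadjusted threshold. Their mean was 4.90 reads per rat for Kcne3, 5.80 for Kcne4, 24.8 for Kcne2 and 52.8 for Kcne5.

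Genes of potassium channel complexes with other symbols were examined as a list of 22, of which 17 were measured. With edgeR's quasi-likelihood test 0 of the 17 had an adjusted p under 0.05, and 3 were higher and 0 lower at an unadjusted p under 0.05, Abcc9 being 1 of the 3. Over all features 9.86% passed in either direction. The number of partners was 5 without rat 6 (beside 13.9% of all features), 1 without rat 7 (beside 7.54%) and 1 without sham rat 3 (beside 8.32%). Lrrc38, a γ subunit of BK channels, was counted at 1.45, 1.76, 0.762, 0.455 and 1.72 CPM in the sham rats and 1.58, 4.27, 2.81, 1.84 and 1.86 CPM in the stimulated rats, with rats 7, 8, 9 and 10 above every sham rat and a log2 fold change of 1.02 (SE 0.39, unadjusted p = 0.019, adjusted p = 0.423). Dlg4, the PSD-95 scaffold that clusters Kv1 channels, was counted at 605, 582, 609, 654 and 618 CPM in the sham rats and 623, 766, 659.6, 661 and 755 CPM in the stimulated rats. Rats 7, 8, 9 and 10 lay above every sham rat, rats 8 and 9 by a small margin, and the log2 fold change was 0.18 (SE 0.08, unadjusted p = 0.038, adjusted p = 0.472). Dpp6 and Dpp10, transmembrane partners of Kv4 channels, had log2 fold changes of 0.06 (adjusted p = 0.827, SE 0.08) and -0.37 (adjusted p = 0.598, SE 0.22).

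Spread between animals was wider in the stimulated group. The SD of log2 CPM was larger in the stimulated rats for 59 of 83 genes (71.1%), beside 69.5% of all features, and the median ratio of stimulated to sham SD was 1.42 for the set and 1.37 for all features. The share of Kcn genes with the wider spread was near that of all features. Rat 7 was the lowest of the 10 rats for 20 genes (24.1%), beside 17.2% of all features, and the highest for 11 (13.3%, beside 17.7%). Rat 9 was the highest for 15 genes (18.1%), beside 13.6% of all features, rat 10 was the lowest for 13 (15.7%, beside 12.8%), and sham rat 2, the library with the fewest aligned counts, was the highest for 16 (19.3%, beside 12.8%) and the lowest for 14 (16.9%, beside 15.3%).

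**Figure D5:**
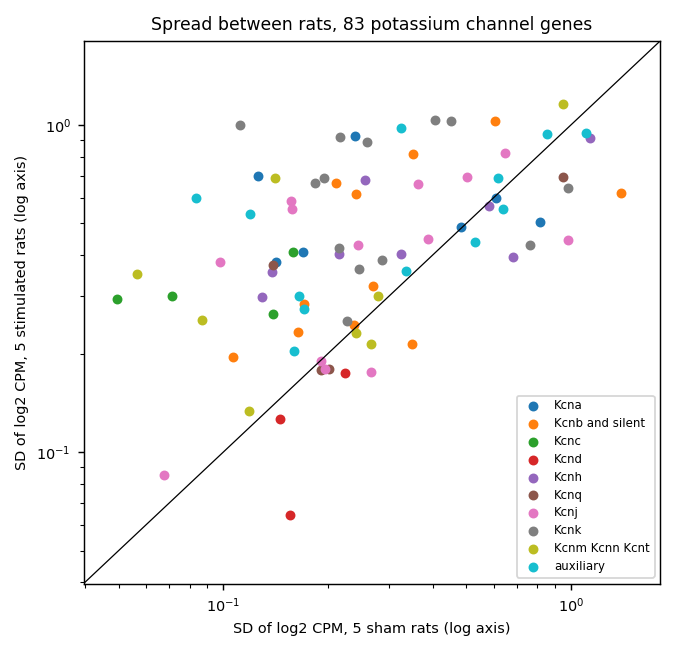
SD of log2 CPM among the 5 stimulated rats (vertical axis) against that among the 5 sham rats (horizontal axis) for the 83 genes, coloured by subfamily, on log axes with the line of equal SD (Kcnb and silent stands for Kcnb with Kcnf, Kcng, Kcns and Kcnv). Of the 83 points 59 lie above the line, Kcnk13 and Kcna2 far above it, and the 3 Kcnd genes below it.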

How the data were processed

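Poly-A RNA of the left hippocampus was sequenced from 5 sham and 5 stimulated rats with 36-cycle single reads, and the deposited matrix held raw counts per RefSeq transcript, made by the authors from BWA alignments to the rn4 build. The methods name an Ensembl annotation whereas the rows carry RefSeq identifiers, and whether counting used strand or shared reads between transcripts is not given in the sources used here. The methods also count fewer stimulated animals than the labels, so all 10 rats were used and each was left out in turn. Depth was 13552309 to 24086059 aligned counts per rat, and the reads listed as unaligned stayed out of library sizes. Features with a summed count of at least 46 over all rats (the 30th percentile of summed counts), 22447 of 32041, were tested with edgeR 4.0.16 (R 4.3.3) by the quasi-likelihood test with trimmed mean (TMM) factors, without covariates, and p-values were adjusted by Benjamini-Hochberg over all tested features. CPM were computed from the counts with the same factors, SDs over rats were taken on log2 CPM with a prior count of 2 where so named, and the standard error of a log2 fold change was its size divided by the square root of F. Symbols came from a RefSeq table of the GRCr8 build (12970 tested features, 57.8%), promoters from the same source. No transcript lengths were used, so CPM do not rank transcripts of different length by abundance. Named were all Kcn genes at an unadjusted p under 0.05, the 2 with the highest mean CPM, not corrected for length, in each subfamily, and textbook channels of hippocampal neurons, and others where stated, while results of 3 genes that the rule would name are not reported here, although they stay in all counts over the set. The genes and lists were chosen with earlier results of these data known. Alternatives were DESeq2 1.42.0, limma-voom (limma 3.58.1), edgeR's likelihood ratio test and adjusted deviances, other scaling factors, no filter, summed rows and each rat left out. The fits were tested on simulated data.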

Additional observations from a re-analysis of the deposited data

Results flagged for a closer look

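In 4 of 70 groups of 5 rats among the named genes (35 genes with their channel partners, both groups of each), 1 rat stood apart by Dixon's gap criterion, in which the gap of the extreme rat to its nearest neighbour is divided by the range of the group and compared with 0.71. Chance flags about 1 in 20 groups, which is 3.5 of 70. Kcng4 was at 75.0 CPM in sham rat 1, with the nearest at 59.3 CPM (gap ratio 0.853). Kcnj6 was at 195 CPM in stimulated rat 8, with the nearest at 220.2 CPM (0.822). Kcns1 was at 13.3 CPM in sham rat 4, with the nearest at 6.40 CPM (0.814). Kcnip3 was at 41.9 CPM in stimulated rat 10, with the nearest at 29.3 CPM (0.711). The 4 cases fell in 4 different genes and 4 different rats.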

How the results depend on the processing

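No Kcn gene had an adjusted p under 0.05 in any of 18 alternative settings, although the likelihood ratio test called 119 and DESeq2 33 of all features there. The study itself listed Kcnk1 and, under another symbol, the Abcc9 transcript as upregulated with an adjusted p under 0.05. It used edgeR's negative binomial model and fewer stimulated rats. No setting here joined a test of that kind with a rat left out. The number of genes higher at an unadjusted p under 0.05 stayed between 5 and 8. The number lower was 5 with limma-voom (beside 4.17%) and 1 to 8 with single rats left out. These ends were without sham rat 2 (beside 2.45%) and without rat 6 (beside 5.71%). Leaving out a rat also gave 0 to 1 gene higher and 0 to 1 lower without overlap. Without rat 6 it was 1 each, beside 2.03% and 1.68% of all features. Channel partners at the unadjusted threshold numbered 1 to 5, with 1 without sham rat 3 (beside 8.32%) and 5 without rat 6 (beside 13.9%). The median log2 fold change with a rat left out was -0.0373 to 0.0475, the latter without rat 10. Kcnk1, Kcnj8, Kcnh6 and Abcc9 kept an unadjusted p under 0.05 in all settings, with log2 fold changes of 0.53 to 0.99, 0.68 to 1.10, -0.74 to -0.49 and 0.51 to 0.71 with single rats left out. The threshold was lost for Dlg4 in 9 settings, Kcns1 in 8, Kcnj14 in 4, Kcnk13 in 3, Kcng2 and Lrrc38 in 2 each, and Kcnip1 and Kcnj15 in 1 each, and the cause was not tested. Of 630 gene settings over 35 named genes, 591 kept their side of the threshold, 30 lost and 9 gained it, and the sign changed in 23, none of them a called gene. No paired analysis was possible because the rats of the 2 groups carry different numbers. Genes with few reads, such as Kcnj15 and Kcne3, are limited by depth.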
